A study of Homo sapiens with 6 samples.

Results

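The cytosolic aminoacyl-tRNA synthetases studied here are 8 genes, AARS1, CARS1, EPRS1, GARS1, MARS1, NARS1, SARS1 and WARS1, compared between THP-1 cells depleted of RKIP and their vector controls. The genes were chosen by name, and all 8 were found among the 14884 genes to which a row of the array could be tied by a single symbol. For a gene with several rows the brightest row on average was used, which concerned only WARS1. THP-1 is a widely used human cell line derived from an acute monocytic leukaemia. RKIP shRNA cells carried a lentiviral psi-LVRU6GP vector with a short hairpin RNA against RKIP, the Raf kinase inhibitor protein encoded by PEBP1, and control cells carried the empty vector. Both were grown in RPMI-1640 with serum and were selected and kept in 1.5 µg/mL puromycin, so the antibiotic is common to the groups. Each group held 3 arrays, named biological replicates. The labels do not say whether these came from separate transductions, whether the population was 1 clone, or which hairpin was used, and each p-value below refers only to variation among these 6 arrays, part of which may be technical.

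Aminoacyl-tRNA synthetases attach each amino acid to its tRNA, and the charged tRNA is then carried to the ribosome. Some act alone and others sit together in the multi-tRNA synthetase complex, which is held by scaffold proteins. When an amino acid runs short, uncharged tRNA activates the kinase GCN2, eIF2 alpha is phosphorylated, and translation of the transcription factor ATF4 rises. ATF4 is known to induce many cytosolic synthetase genes together with genes of amino acid synthesis, partly through a composite element bound with C/EBP proteins.

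The sequences around this element are shown because the choice of genes did not read them. The 8 genes are, however, known to follow ATF4, so a match is no independent evidence. The letters TGATGNAA were searched on both strands in the RefSeq windows from 250 bases before to 50 bases after each annotated start (GRCh38.p14). They occurred in 3.62% of 35116 windows, and the form TGATGCAA in 0.866%. Counted by gene over all its windows, TGATGNAA was found for 3.22% of 10749 tested genes with a window. All 8 genes had at least 1 window. A match to TGATGNAA was found for 5 of the 8, which were AARS1, CARS1, GARS1, MARS1 and NARS1, and among 6 other measured cytosolic synthetase genes with a window it was found for IARS1 and TARS1. Each line below gives 30 bases in the direction of the gene, with the match in capitals.
AARS1, chr16:70289675-70289704, minus strand: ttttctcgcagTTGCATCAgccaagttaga
CARS1, chr11:3057407-3057436, minus strand: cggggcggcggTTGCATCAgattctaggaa
MARS1, chr12:57488053-57488082, plus strand: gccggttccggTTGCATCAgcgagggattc
NARS1, chr18:57621804-57621833, minus strand: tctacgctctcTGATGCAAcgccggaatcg
IARS1, chr9:92293692-92293721, minus strand: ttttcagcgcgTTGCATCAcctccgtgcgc
TARS1, chr5:33440956-33440985, plus strand: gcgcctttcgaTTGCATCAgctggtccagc
GARS1, chr7:30594834-30594863, plus strand: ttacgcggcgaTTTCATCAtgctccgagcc
The first 6 lines hold TGATGCAA or its reverse complement TTGCATCA, whereas the GARS1 match TTTCATCA differs from that form. The match began 2 bases before the start in CARS1, 4 before in MARS1 and 13 before in IARS1, 15 and 3 bases into the transcript in NARS1 and TARS1, and 187 bases before the start in AARS1. The GARS1 match lay 33 bases before its second start. No match was found in the windows of WARS1, SARS1 or EPRS1.

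WARS1 had 2 annotated starts, and its upstream sequences are printed because this gene changed most among the 8. Capitals mark the CCAAT box, found in 34.6% of windows on either strand, and the core of the interferon-stimulated response element, searched as GAAA, any 2 bases and GAAA on either strand and found in 3.57% of windows.
WARS1 start 1, chr14:100376328-100376577, minus strand: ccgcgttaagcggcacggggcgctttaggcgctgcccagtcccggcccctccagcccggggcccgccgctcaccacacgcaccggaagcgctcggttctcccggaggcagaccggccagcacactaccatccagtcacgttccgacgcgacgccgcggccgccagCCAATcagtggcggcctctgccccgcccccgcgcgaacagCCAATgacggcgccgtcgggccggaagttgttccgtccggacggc
WARS1 start 2, chr14:100375348-100375597, minus strand: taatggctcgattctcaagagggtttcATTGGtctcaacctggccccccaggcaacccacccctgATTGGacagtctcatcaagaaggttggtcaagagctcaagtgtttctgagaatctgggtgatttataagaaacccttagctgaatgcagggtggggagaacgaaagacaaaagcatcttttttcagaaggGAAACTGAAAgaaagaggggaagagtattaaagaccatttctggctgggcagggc
Among the windows of the 8 genes the interferon-stimulated core occurred only before the second WARS1 start, as GAAACTGAAA beginning 55 bases upstream. A match of letters is a description and not evidence that a factor binds there.

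The arrays and the cell labels were checked first. The median log2 value of an array, taken over its 53617 rows, was 4.06 to 4.10, and over the named genes arrays correlated at r = 0.994 to 0.996 within a group and 0.987 to 0.988 between groups (across genes, which are not independent replicates). PEBP1, the targeted gene, was at 36.4% of the control level in RKIP shRNA cells (95% interval 31.6% to 42.1%, limma adjusted p = 0.000228). Of 16 myeloid markers 10 were measured, of which 5 were called higher and 2 lower (limma adjusted p under 0.05), with summed linear values from 10726.9 to 11395.6 in RKIP shRNA arrays and from 7823.0 to 8271.1 in control arrays. The lysozyme gene LYZ had a log2 change of 2.55, the signalling adaptor gene TYROBP 2.37, the myeloid transcription factor gene SPI1 0.49, the macrophage marker CD68 0.37, the costimulatory gene CD86 -0.90 and the T cell coreceptor gene CD4, which monocytes also express, -0.35. The CD4 call was lost without RKIP shRNA replicate 1 or control replicate 2 or 3 (adjusted p up to 0.0588). The primary granule gene MPO, at 13.03 in RKIP shRNA and 12.76 in control cells, was the brightest of the 10 and made up most of their summed values. MPO was called higher but lost this call on leaving out any 1 array (limma adjusted p = 0.066 to 0.115). Both CD14 and CD36 were dim in both groups, with means under the median of the whole table, 4.08. Of 30 markers of T, B, epithelial, erythroid and fibroblast cells 15 were measured. FN1 and CD5 were called higher and KRT18 and VPREB3 lower. Of these 4 calls FN1 alone was kept in all 6 fits that left out 1 array. A second, dimmer KRT18 row gave a log2 change of 0.02 (limma adjusted p = 0.94 over all named rows). The FN1 control mean, 3.98, lay under the median of the whole table. The summed linear values of the 15 ranged from 618.5 to 634.2 in RKIP shRNA arrays and from 640.9 to 693.0 in control arrays. Of the 15, 5 were below that median in both groups. These markers moved between the same groups as the synthetase genes, and their part in the results was not tested.

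Of the 8 genes 4 were called lower in RKIP shRNA cells and 0 higher. Those called were WARS1, CARS1, SARS1 and GARS1, by an adjusted p under 0.05 over all 14884 genes (limma, Benjamini-Hochberg). Over all genes 10.2% were called lower and 10.0% higher. At an unadjusted limma p under 0.05 the 8 genes gave 6 lower and 0 higher, beside 15.5% lower and 16.8% higher over all genes. All 8 log2 changes were below 0, as were 45.8% of those of all genes, and the median was -0.22 for the 8 genes beside 0.02 for all genes. In 6 of the 8 every RKIP shRNA array was lower than every control array, which held for 18.1% of all genes. The genes were chosen with earlier results of these data known, so these shares are no independent evidence. In a bulk culture, fewer cells that express a gene and less of its RNA per cell cannot be told apart.

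WARS1, which charges tryptophan tRNA and is known to be induced by interferon gamma, had the largest fall. Its log2 values were 9.12, 9.04 and 9.06 in RKIP shRNA arrays, against 9.88, 9.89 and 9.91 in control arrays. The groups lay far apart, with a gap of 0.76 between the nearest arrays, many times the SD within either group (0.04 in RKIP shRNA and 0.02 in control arrays, n = 3 each). The log2 change was -0.82 (SE 0.06, limma adjusted p = 0.000478), and the level was 56.7% of that in control cells (95% interval 51.1% to 62.8%). A second WARS1 row, dimmer than the first, had 5.10, 5.31 and 5.57 in RKIP shRNA arrays and 5.59, 6.29 and 6.32 in control arrays. It also lay lower in all RKIP shRNA arrays, with a log2 change of -0.74 (SE 0.22), but with an adjusted p of 0.055 over all named rows it did not pass the limma test.

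CARS1, the cysteine enzyme, had log2 values of 7.98, 7.95 and 7.96 in RKIP shRNA arrays, against 8.58, 8.66 and 8.64 in control arrays. Its log2 change was -0.66 (SE 0.06, limma adjusted p = 0.000891), or 63.1% of the control level (95% interval 56.9% to 69.9%). SARS1 charges serine tRNA and also loads the selenocysteine tRNA with serine. Its log2 values were 8.64, 8.62 and 8.72 in RKIP shRNA arrays, against 9.35, 9.31 and 9.22 in control arrays. The groups did not overlap, and the log2 change was -0.64 (SE 0.07, limma adjusted p = 0.00152), or 64.4% of the control level (57.4% to 72.2%). The 3 largest falls kept their call in all 14 alternative fits, including each of the 6 that left out 1 array.

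GARS1, whose single gene supplies glycyl-tRNA synthetase to the cytosol and to mitochondria, also fell. Its log2 values were 10.61, 10.58 and 10.71 in RKIP shRNA arrays, against 10.89, 10.86 and 10.88 in control arrays, without overlap. The log2 change was -0.24 (SE 0.07, limma adjusted p = 0.048), or 84.9% of the control level (76.1% to 94.7%). This call sat at the threshold. It was kept without RKIP shRNA replicate 3 (adjusted p = 0.0495) and lost on leaving out any other array, with adjusted p-values of 0.134 and 0.114 without RKIP shRNA replicates 1 and 2 and of 0.117, 0.114 and 0.123 without control replicates 1, 2 and 3. GARS1-DT, a non-coding transcript named as divergent from GARS1, gave log2 changes of -0.30 and -0.22 at its 2 rows, with limma adjusted p-values of 0.121 and 0.413 over all named rows.

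**Figure D1:**
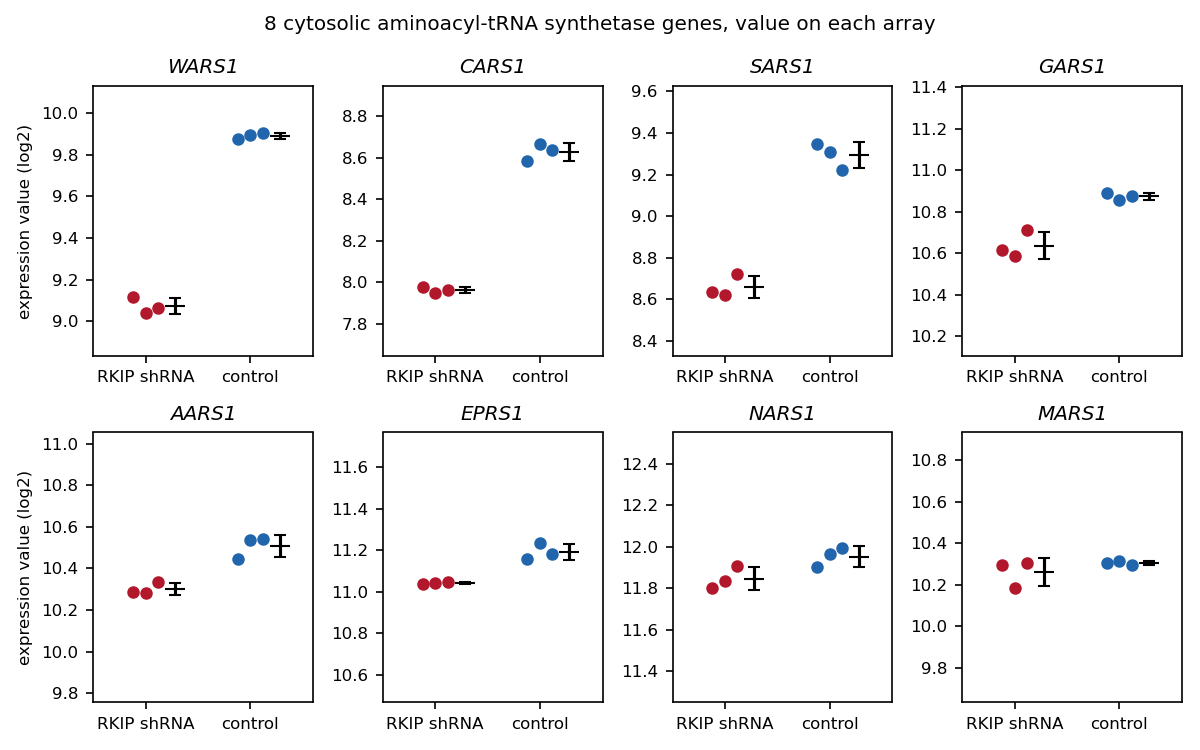
Log2 expression value of each of the 8 synthetase genes (y axis, the same span of 1.3 log2 units in every panel) in the 3 RKIP shRNA arrays (red, left) and the 3 control arrays (blue, right), with the mean and SD in black. The groups lie apart by 0.50 or more between nearest arrays in WARS1, CARS1 and SARS1, by at most 0.14 in GARS1, AARS1 and EPRS1, and overlap in NARS1 and MARS1.

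The other 4 genes did not pass the test. AARS1, the alanine enzyme, had log2 values of 10.29, 10.28 and 10.33 in RKIP shRNA arrays, against 10.45, 10.54 and 10.54 in control arrays. The groups did not overlap, and the log2 change of -0.21 (SE 0.07) had a limma adjusted p of 0.0674. EPRS1 encodes a fused enzyme for glutamate and proline that belongs to the multi-tRNA synthetase complex. It had 11.03, 11.04 and 11.05 in RKIP shRNA arrays, against 11.16, 11.23 and 11.18 in control arrays, again without overlap (log2 change -0.15, SE 0.06, limma adjusted p = 0.148).

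NARS1, the asparagine enzyme, had log2 values of 11.80, 11.83 and 11.91 in RKIP shRNA arrays, against 11.90, 11.96 and 11.99 in control arrays. The highest RKIP shRNA array stood above the lowest control array, and the log2 change was -0.11 (limma adjusted p = 0.343, 95% interval -0.27 to 0.05). MARS1 charges methionine tRNA, including the initiator, and is another enzyme of the complex. It had 10.29, 10.18 and 10.31 in RKIP shRNA arrays, against 10.31, 10.31 and 10.30 in control arrays. Its log2 change was -0.04 (limma adjusted p = 0.725), and the 95% interval from -0.20 to 0.11 leaves room for a small difference in either direction. An exact two-sided permutation test of each gene alone gave p = 0.1, the smallest that 3 arrays against 3 allow, for the 6 genes without overlap, 0.2 for NARS1 and 0.4 for MARS1.

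The 8 genes therefore spread over a range of changes from -0.82 to -0.04. The 95% intervals of WARS1, CARS1 and SARS1 lay wholly below those of the 5 other genes, a split that was noticed in the values and has no test of its own. Matches to the composite element in the windows did not follow this order, and sequence outside the windows was not searched. Of the 5 genes with a match 2 were called lower and their median log2 change was -0.21, and of the 3 without a match 2 were called lower and the median was -0.64. Over the 14 measured cytosolic synthetases with a window, 3 of 7 were called lower both with and without a match, and the medians were -0.21 with and -0.15 without. CARS1 and MARS1, a pair picked after their values were seen, carry the same 8 letters within a few bases of their starts. Their log2 changes were -0.66 and -0.04. Over all tested genes with a window, TGATGNAA was present for 3.96% of 1187 genes called lower, 2.09% of 1242 called higher and 3.22% of all 10749. TGATGCAA was present for 18 of the genes called lower and 4 of those called higher (1.52% and 0.322%, beside 0.884% of all). These counts, medians and shares are given as a description, with no test. Whether the element had a part in the changes was not tested.

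**Figure D2:**
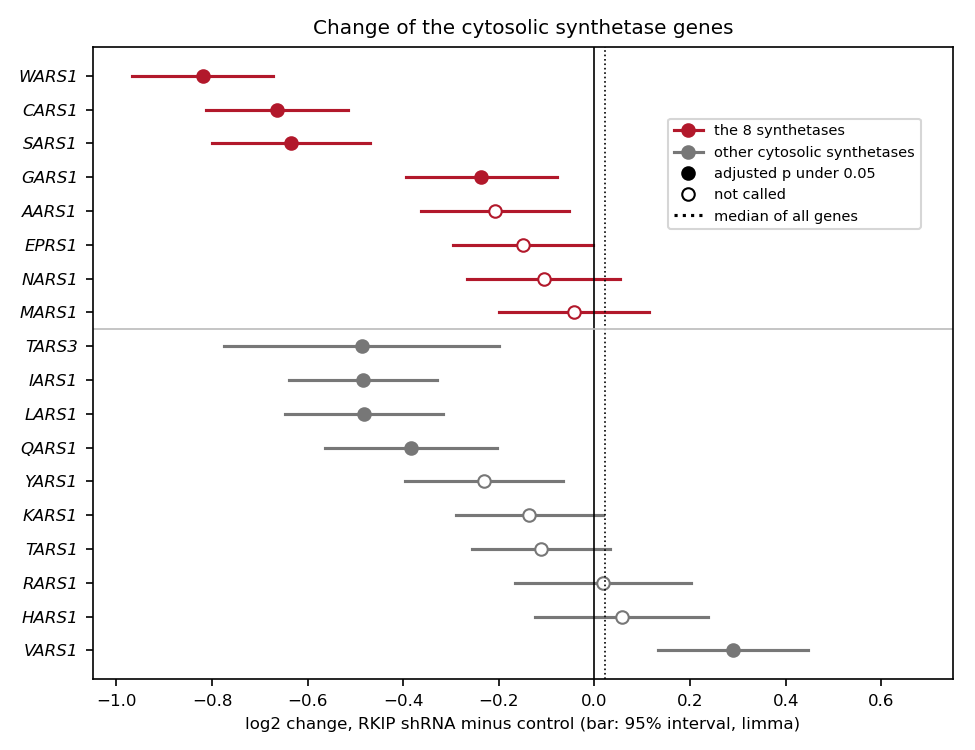
Log2 change of each measured cytosolic synthetase gene, RKIP shRNA minus control (x axis), with its 95% interval from limma, for the 8 genes (red) and 10 others (grey). Filled points passed an adjusted p under 0.05, and the dotted line is the median of all genes, 0.02. The changes of the 8 genes run from -0.82 to -0.04 and those of the others from -0.49 to 0.29.

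Of 13 other cytosolic synthetase genes 10 were measured, of which 4 were called lower and 1 higher, with a median log2 change of -0.18. The complex enzymes IARS1 for isoleucine and LARS1 for leucine, which is also known as a leucine sensor upstream of mTORC1, had log2 changes of -0.48 each (SE 0.07 each, limma adjusted p = 0.00324 and 0.00404). IARS1 had 11.00, 10.98 and 11.09 in RKIP shRNA arrays, against 11.52, 11.48 and 11.51 in control arrays. LARS1 had 10.71, 10.70 and 10.84 in RKIP shRNA arrays, against 11.21, 11.24 and 11.25 in control arrays. For both genes all RKIP shRNA arrays were below all control arrays. QARS1, the glutamine enzyme of the complex, had a log2 change of -0.38 (limma adjusted p = 0.0133). TARS3, a threonyl-tRNA synthetase paralogue of TARS1, had -0.49 (limma adjusted p = 0.0313), but kept its call in only 1 of 6 fits that left out 1 array, that without RKIP shRNA replicate 2.

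VARS1, the valine enzyme, which associates with elongation factor 1, was the 1 synthetase called higher. Its log2 values were 8.67, 8.77 and 8.77 in RKIP shRNA arrays, against 8.48, 8.43 and 8.43 in control arrays, a log2 change of 0.29 (SE 0.07, limma adjusted p = 0.0221). A second VARS1 row had a log2 change of 0.37 (adjusted p = 0.0089 over all named rows), so both rows lay higher. The VARS1 call was lost without RKIP shRNA replicate 2 or 3 (adjusted p = 0.0608 each) and without control replicate 2 or 3 (adjusted p = 0.0777 and 0.0757). YARS1, the tyrosine enzyme, had a log2 change of -0.23 (limma adjusted p = 0.0588), and RARS1, the arginine enzyme, had 0.02 (adjusted p = 0.914), a sign that turned under quantile normalisation. The histidine enzyme HARS1, the lysine enzyme KARS1 and TARS1 had log2 changes of 0.06, -0.14 and -0.11 and did not pass. AIMP1, a scaffold of the multi-tRNA synthetase complex and the 1 measured of 3, had -0.23 (limma adjusted p = 0.0513).

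Among the 18 measured cytosolic synthetases together, 8 were called lower and 1 higher. By place, 3 of 7 enzymes of the complex were called lower, with a median log2 change of -0.15, and 5 of 11 outside it, with a median of -0.23, while VARS1 outside it was called higher. Both places thus held genes that fell and genes that did not pass. The 17 mitochondrial synthetases and 22 amino acid transporters that were listed had no row with a gene name and were not analysed here.

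Of 32 listed genes other than synthetases that are also linked to ATF4, ATF4 itself included, 23 were measured. Of these 13 were called lower, none higher and 10 did not pass by limma (15 lower and 1 higher at an unadjusted p under 0.05). Over all genes the called shares were 10.2% lower and 10.0% higher (15.5% and 16.8% unadjusted). In this list 4 of the 23 log2 changes were above 0, and the median was -0.30. The 4 with the smallest p were the transcription factor gene ATF5 at -2.33, the pseudokinase gene TRIB3 at -1.31, and CTH and CBS at -1.49 and -1.16, which encode the enzymes of the transsulfuration route to cysteine (limma adjusted p = 2.5e-05, 0.00013, 0.000136 and 0.00224). CBS has a near-identical copy in the reference genome, so its signal cannot be assigned to 1 locus. Among the remaining called genes ATF3 and PSAT1 kept their call in only 1 of 6 fits that left out 1 array. PHGDH kept it in 3 of 6 and the others in all 6. ATF4 itself had log2 values of 10.48, 10.38 and 10.62 in RKIP shRNA arrays, against 10.78, 10.77 and 10.75 in control arrays. Its log2 change of -0.28 (SE 0.08) just missed the test (limma adjusted p = 0.0507).

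The regulators upstream of ATF4 were mixed. Of 6 measured genes among 16 listed eIF2 kinases, eIF2 and eIF2B subunits and regulators, 1 was called higher and 1 lower. GCN1, which helps GCN2 respond to uncharged tRNA, had a log2 change of 0.35 (limma adjusted p = 0.00936), and IMPACT, which restrains GCN2 by competing for GCN1, had -0.25 (limma adjusted p = 0.0361). IMPACT kept its call in only 1 of 6 fits that left out 1 array, that without RKIP shRNA replicate 3, and the adjusted p reached 0.112 in the others. EIF2AK4, which encodes GCN2, had log2 values of 7.59, 7.38 and 7.56 in RKIP shRNA arrays, against 7.81, 7.80 and 7.73 in control arrays, a change of -0.26 that did not pass (limma adjusted p = 0.059).

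Of 28 listed genes of tRNA export, end processing, modification and proofreading 19 were measured. Of these 8 were called higher, none lower and 11 did not pass by limma (11 higher and 1 lower at an unadjusted p under 0.05). Over all genes the called shares were 10.0% higher and 10.2% lower. In this list 4 of the 19 log2 changes were below 0, and the median was 0.26. The pseudouridine synthase gene PUS7 had log2 values of 8.98, 8.95 and 9.12 in RKIP shRNA arrays, against 8.30, 8.39 and 8.33 in control arrays. Its log2 change was 0.68 (SE 0.07, limma adjusted p = 0.00153), and a second PUS7 row gave 0.81. TRMT61A, the catalytic subunit of a tRNA adenine methyltransferase, rose by 0.60, WDR4, the partner of the tRNA guanine methyltransferase METTL1, by 0.41, and ELAC2, which cuts the trailing end of tRNA precursors, by 0.33 on the log2 scale (limma adjusted p = 0.00738, 0.0112 and 0.0122). Of the remaining called genes, TRMT6 and PUS1 kept their call in only 1 of 6 fits that left out 1 array. METTL1 kept it in 2 of 6 and QTRT2 in all 6. Of 6 measured genes among 20 of RNA polymerase III, which transcribes tRNA genes, POLR3B, a large subunit, rose by 0.57 and MAF1, a repressor of this polymerase, rose by 0.42 (limma adjusted p = 0.00225 and 0.0093), and 4 did not pass. The median of these 6 was 0.08, with 3 below 0.

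Of 5 measured genes among 6 elongation factors 1 was called lower and 3 log2 changes were above 0, with a median of 0.30. EEF1A1, EEF1A2 and EEF1D, of elongation factor 1, had 0.30, 0.33 and 0.32 and did not pass (limma adjusted p = 0.216, 0.285 and 0.0938). EEF1G, also of elongation factor 1, went the other way at -0.25 and did not pass either (limma adjusted p = 0.128). A second, dimmer EEF1G row gave -0.06. EEF2, which moves the ribosome along the message, had a log2 change of -0.32 (limma adjusted p = 0.0205) and kept its call in only 1 of 6 fits that left out 1 array, that without RKIP shRNA replicate 3, with an adjusted p of up to 0.065 in the others. Because WARS1 is induced by interferon gamma, a list of 22 genes with that property was also examined, of which 7 were measured. CXCL10, a chemokine gene, was called higher (limma adjusted p = 0.000635), with log2 values of 6.27, 5.87 and 6.10 in RKIP shRNA arrays, against 3.30, 4.09 and 3.65 in control arrays. The control mean lay under the median of the table, 4.08, so no fold is given. GBP4, GBP5, CXCL9 and SOCS1 were dim in both groups, where a fall could hardly be seen. The transcription factor gene IRF1 and the chemokine gene CXCL11 had log2 changes of -0.20 and -0.18 and did not pass (limma adjusted p = 0.245 and 0.412).

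**Figure D3:**
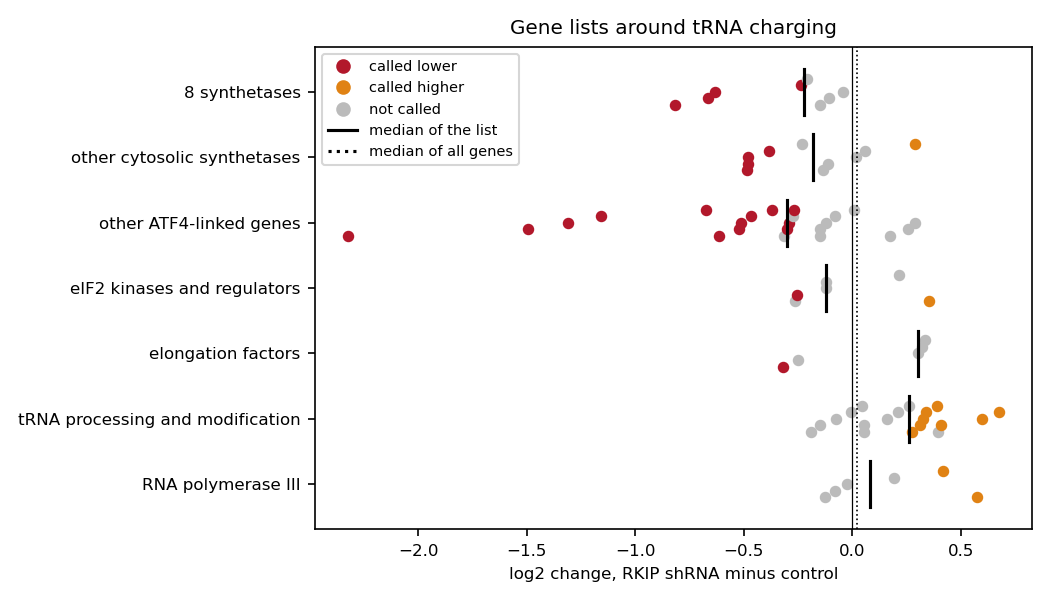
Log2 change of every measured gene, RKIP shRNA minus control (x axis), in 7 lists around tRNA charging (rows), with called genes in red (lower) or orange (higher), uncalled genes in grey and the list median as a black bar. The medians are -0.22 for the 8 synthetases and -0.30 for other ATF4-linked genes, beside 0.26 for genes of tRNA processing and modification, and the dotted line is the median of all genes, 0.02.

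Array by array, the median of the 8 genes relative to their control means was -0.24, -0.26 and -0.17 in RKIP shRNA replicates 1, 2 and 3, against -0.02, 0.01 and 0.01 in control replicates 1, 2 and 3. The protein-coding genes outside the synthetases nearest to this profile over the 6 arrays were MED21, SEC63, TPP2, NCKAP1L and TAB2, with root mean square distances from 0.0116 to 0.0199 log2 units. SEC63, TPP2 and TAB2 were called lower (limma adjusted p = 0.0408, 0.0456 and 0.0397) but lost this call on leaving out any 1 array. MED21 and NCKAP1L did not pass (limma adjusted p = 0.0607 and 0.0654). The falls of WARS1, CARS1 and SARS1 were larger than this median profile. MED21 encodes a Mediator subunit, SEC63 a partner of the endoplasmic reticulum translocon and TPP2 a cytosolic peptidase. These distances describe likeness over 6 arrays that fall into the same 2 groups.

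**Figure D4:**
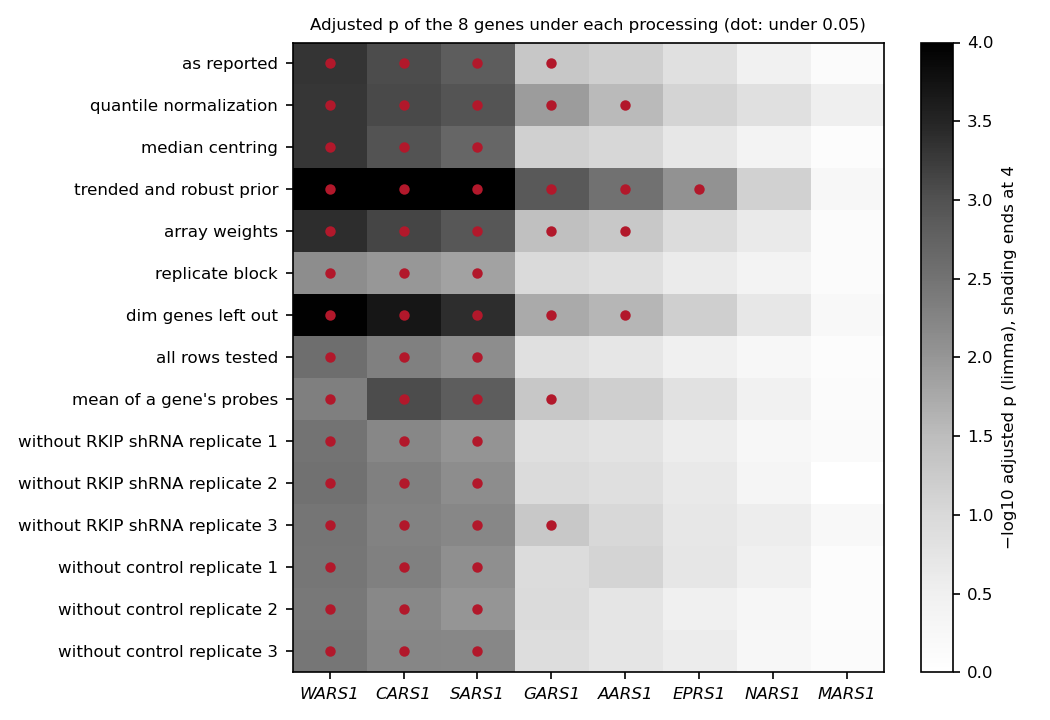
Adjusted p from limma for each of the 8 genes (columns, in the order of their change) under the processing reported here and 14 alternatives (rows), with darker shading for a smaller p and a red dot where it is under 0.05. WARS1, CARS1 and SARS1 have a dot in every row, GARS1 in 6 of the 14 alternatives, AARS1 in 4 and EPRS1 in 1, and NARS1 and MARS1 have none.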

How the data were processed

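Total RNA of 6 samples, 250 ng each, was labelled with biotin, per the labels' protocols, and hybridised to Affymetrix Human Gene 2.0 ST arrays, as the design text states. The authors deposited 1 table of log2 values with 53617 rows, whose log2 scale was read from its range of 0.72 to 14.0. The summarisation, background correction and normalisation behind it are in none of the sources used here, and no detection call was used. Rows were named through the array annotation, 16098 with 1 symbol, matched by gene number to RefSeq (GRCh38.p14), and 37519 were unnamed here. For 14884 genes the row with the highest mean was kept.

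RKIP shRNA minus control was fitted across all genes with limma 3.58.1 (lmFit, eBayes; R 4.3.3), with no filter and 7.01 total degrees of freedom, after a test on simulated arrays. The number of arrays limits the precision. No batch is recorded in the labels. No arrays were duplicates: pairs shared 58 to 144 identical values.

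The members, lists and tests were chosen with earlier results of these data known. Named were the 8 genes, PEBP1, called other synthetases and the least and most changed uncalled one, in each other list, marker lists aside, the 4 called genes with the smallest p, and the 5 genes nearest in pattern. HARS1, KARS1, TARS1, AIMP1, ATF4, EIF2AK4, GARS1-DT, TRMT6, PUS1, METTL1, QTRT2, EEF1A1, EEF1A2, EEF1D, EEF1G, GBP4, GBP5, CXCL9, SOCS1, IRF1, CXCL11 and the markers were named outside this rule, after their values were seen. So were ATF3, PSAT1 and PHGDH. Alternatives were leaving out each array, a block for the replicate number, array weights, quantile normalisation or median centring, an eBayes prior with trend and robust estimation, the mean of a gene's rows, all rows, and only genes above the median brightness. Figures used matplotlib 3.10.9.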

Additional observations from a re-analysis of the deposited data

How the results depend on the processing

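WARS1, CARS1 and SARS1 kept their direction and their call under all 14 alternatives, with log2 changes from -0.84 to -0.78, -0.69 to -0.65 and -0.67 to -0.61. The count of the 8 genes called lower was 4 and ranged from 3 to 6. It was 3 under median centring, the replicate block and the test over all rows. It was also 3 on leaving out any 1 array other than RKIP shRNA replicate 3. The count stayed at 4 without that array and with the mean of a gene's rows. It was 5 under quantile normalisation, array weights and without dim genes, and 6 with a trended and robust prior. GARS1 lost its call in 8 of the 14, including the replicate block (adjusted p = 0.105). The trended and robust prior called 7 of the other cytosolic synthetases lower, where 4 were reported. Of the 23 ATF4-linked genes other than synthetases 13 were reported lower. That count was 10 with the replicate block, with all rows tested and without RKIP shRNA replicate 1 or control replicate 2. It was 15 with the trended and robust prior, and 15 of 22 without dim genes. Over all genes 3010 of 14884 were called, and 3101 under quantile normalisation, 3246 with array weights and 3869 with the trended and robust prior. Without dim genes the count was 3695 of 9667. Fewer were called under median centring (2900), when all rows were tested (1774) and when 1 array was left out (1987 to 2397). RARS1, at 0.02 and not called, changed sign to -0.055 under quantile normalisation, and ranged from -0.013 to 0.075 on leaving out 1 array (-0.010 and -0.013 without RKIP shRNA replicates 1 and 3, -0.0024 without control replicate 1). Same-numbered arrays deviated from their group means with correlations of 0.019, 0.0034 and -0.016. These gave no sign of pairing by replicate number, but with 3 arrays per group they cannot exclude it. With the number as a replicate block 2142 genes were called, and GARS1 and VARS1 lost their calls (adjusted p = 0.105 and 0.073). The causes of these moves were not tested. Mitochondrial synthetases and amino acid transporters gave no value under any setting. Differences as small as those of MARS1 and NARS1 were not resolved with 3 arrays per group.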
